A study of Homo sapiens with 8 samples.

Results

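The response to (Z)-4-hydroxytamoxifen (4-OHT) that all 4 clones of the series shared, whatever their genotype, was described across the genes of 8 RNA libraries. The cells were BJ, a human skin fibroblast line, in a derivative labelled BJ-HRAS. The groups were SNORA13 knockout (KO) clones 66 and 69 and WT clones 15 and 54, each given 100 nM 4-OHT for 7 days, and the same KO and WT clones left without it. Every clone thus gave 1 library with and 1 library without the compound, and the 4 libraries with 4-OHT were compared with the 4 without it, paired by clone. A gene was called higher or lower in every clone when limma's paired test over 16542 tested genes gave a Benjamini-Hochberg adjusted p under 0.05 and all 4 clones moved the same way. Replicates are clones of 1 line, so p-values measure the spread between these clones. No library of cells without an inducible gene, and none of another day, was analysed here, so effects of the compound itself and of what it activates cannot be told apart.

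In engineered fibroblasts of this kind, 4-OHT, a ligand of the oestrogen receptor, is commonly used to release a fusion of RAS with the receptor's hormone-binding domain, which then signals through RAF, MEK and ERK. ERK output is read by its feedback inhibitors (the Sprouty, SPRED and DUSP families), by ETS and AP-1 transcription factors and by secreted ligands of the EGF receptor. Sustained RAS activity in normal fibroblasts is known for an arrest of division, a secretory programme of interleukins, chemokines and proteases, and a changed matrix. SNORA13, a small nucleolar RNA, is the gene removed in the KO clones. It had 0 reads in each of the 4 KO libraries and 4 to 7 reads in each WT library, where 0 reads leave room for up to 3.

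Libraries held 22.1 to 24.9 M reads. Levels are RPKM, reads scaled to library size and transcript length, after division by trimmed-mean factors. At this depth 1 read in a transcript of 1 kb was worth 0.0401 to 0.0453 RPKM. The first principal component, with 74% of the variance, separated the libraries with 4-OHT from those without it. RN7SL1 and RN7SL2, which encode the signal recognition particle's RNA, made up 9.72% to 16.1% of reads with 4-OHT, against 9.18% to 10.1% without it. The lowest library with 4-OHT was WT clone 15, at 9.72%. With the 4 genes that held over 1% of the reads of any library (RN7SL1, RN7SL2, EEF1A1 and THBS1) left out before scaling, 4266 genes were called higher and 4441 lower in every clone, close to the 4274 and 4447 with them kept. In bulk RNA, fewer cells that express a gene and less of its RNA per cell cannot be told apart.

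Of the 16542 genes tested, 8814 (53.3%) passed the test, and 9860 (59.6%) had an unadjusted p under 0.05. With the same direction in all 4 clones, 4274 genes (25.8% of those tested) were called higher and 4447 (26.9%) lower with 4-OHT. A further 1936 genes (11.7%) moved 1 way in all 4 clones without passing the test, and 93 (0.562%) passed it with clones of opposite sign. At least 2-fold in each of the 4 clones were 637 genes (3.85%) upward and 1078 (6.52%) downward, so the large shared changes were more often decreases. Genes lower in both KO and higher in both WT clones made up 4.53% of those tested, and the reverse pattern 4.3%. Of the 8721 genes with a shared call, 729 also differed in size between genotypes by the interaction term. Over all 16542 genes tested that term was called for 1385 (8.37%), a similar share. Over genes, the responses of 2 clones correlated at r = 0.917 for KO clones 66 and 69, at 0.875 for WT clones 15 and 54, and at 0.759 to 0.817 between a KO and a WT clone. Genes are not independent replicates, and this is a description.

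The strongest shared increases included secreted proteins and surface proteins. They were ranked by the smallest of the 4 responses, among called genes with at least 5 reads per 1 M in the higher condition. The ranking uses the tested contrast, and the p-values of these genes are not independent of it. STC1, the secreted glycoprotein stanniocalcin 1, led with 649 and 614 RPKM in KO clones 66 and 69 and 580.5 and 643 RPKM in WT clones 15 and 54 with 4-OHT, against 4.18 and 4.94 RPKM in the same KO clones and 6.02 and 8.37 RPKM in the WT clones without it. All 4 libraries with 4-OHT stood above all 4 without it, and the change in the least responsive clone was 75.95-fold (log2 change 6.75 ± 0.17 SE, adjusted p = 1.85e-05). TMEM158 (chr3:45224466-45226278 on GRCh38, minus strand), a membrane protein first described as induced by RAS, had 394 and 435 RPKM in KO and 373 and 443 RPKM in WT clones with 4-OHT, against 4.08 and 4.33 RPKM in KO and 3.45 and 5.78 RPKM in WT clones without it, a nearly even rise (log2 change 6.53 ± 0.10 SE, adjusted p = 4.47e-06). MMP1, the interstitial collagenase, had 1742 and 1926 RPKM in KO and 1990 and 2286 RPKM in WT clones with 4-OHT, against 14.8 and 33.2 RPKM in KO and 41.9 and 53.97 RPKM in WT clones without it. For MMP1 the log2 change was 5.92 ± 0.24 SE (adjusted p = 4.89e-05). It was the most abundant of the 15 named genes with 4-OHT on this scale. PLAU, the urokinase plasminogen activator, had 655 and 605 RPKM in KO and 636 and 715 RPKM in WT clones with 4-OHT, against 8.2 and 7.75 RPKM in KO and 11.8 and 24.5 RPKM in WT clones without it (log2 change 5.79 ± 0.25 SE, adjusted p = 5.38e-05), and its tissue-type relative PLAT had 584 and 477 RPKM in KO and 1231 and 1365 RPKM in WT clones with 4-OHT, against 22.1 and 20.4 RPKM in KO and 32.6 and 34.8 RPKM in WT clones without it. For PLAT the log2 change was 4.95 ± 0.15 SE (adjusted p = 2.42e-05). Groups did not overlap for either, and PLAT rose less in KO clones, with KO minus WT -0.63 log2 units (adjusted p = 0.0272).

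Ligands, a receptor of another ligand and an ion channel were also among these 15. AREG (chr4:74445134-74455009, plus strand), amphiregulin, a ligand of the EGF receptor, had 82.9 and 85.99 RPKM in KO and 26.3 and 39.03 RPKM in WT clones with 4-OHT, against 0.914 and 0.796 RPKM in KO and 0.375 and 0.428 RPKM in WT clones without it. The 2 conditions were far apart in each clone (log2 change 6.24 ± 0.14 SE, adjusted p = 1.44e-05), and KO clones were the higher pair in both. CXCL8 (chr4:73740506-73743716, plus strand), interleukin 8, a neutrophil attractant, had 15.5 and 16.7 RPKM in KO and 74.4 and 88.6 RPKM in WT clones with 4-OHT, against 0.0509 and 0.449 RPKM in KO and 0.23 and 0.456 RPKM in WT clones without it. For CXCL8 the log2 change was 6.69 ± 0.46 SE (adjusted p = 0.000195). Here the WT clones were the higher pair with 4-OHT. MC4R, a melanocortin receptor, stood at 5.58 to 11.7 RPKM with 4-OHT, against 0 to 0.129 RPKM without it, and TRPA1, an irritant-gated cation channel, at 15.5 to 27.7 RPKM with 4-OHT, against 0.0789 to 0.212 RPKM without it. Without the compound MC4R was near the detection limit. HAS2, which makes hyaluronan, stood at 8.4 to 29.2 RPKM with 4-OHT, against 0 to 0.0297 RPKM without it, and COL10A1, the collagen chain of hypertrophic cartilage, at 10.2 to 27.2 RPKM with 4-OHT, against 0 to 0.145 RPKM without it. CNIH3, an auxiliary protein of glutamate receptors, stood at 37.98 to 57.4 RPKM with 4-OHT, against 0.502 to 1.03 RPKM without it. G0S2, an inhibitor of the fat lipase ATGL, stood at 19.7 to 36.8 RPKM with 4-OHT, against 0.191 to 1.01 RPKM without it, and E2F7, a repressor of E2F targets, at 34.3 to 45.9 RPKM with 4-OHT, against 0.671 to 2.01 RPKM without it. LINC00973, a long noncoding RNA, completed the 15 with 3.16 to 8.16 RPKM with 4-OHT and is listed at 0 without it. Log2 changes of the 15 lay between 4.95 (PLAT) and 7.27 (HAS2), on the log2(RPKM + 0.1) scale, which understates genes near 0.

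**Figure D1:**
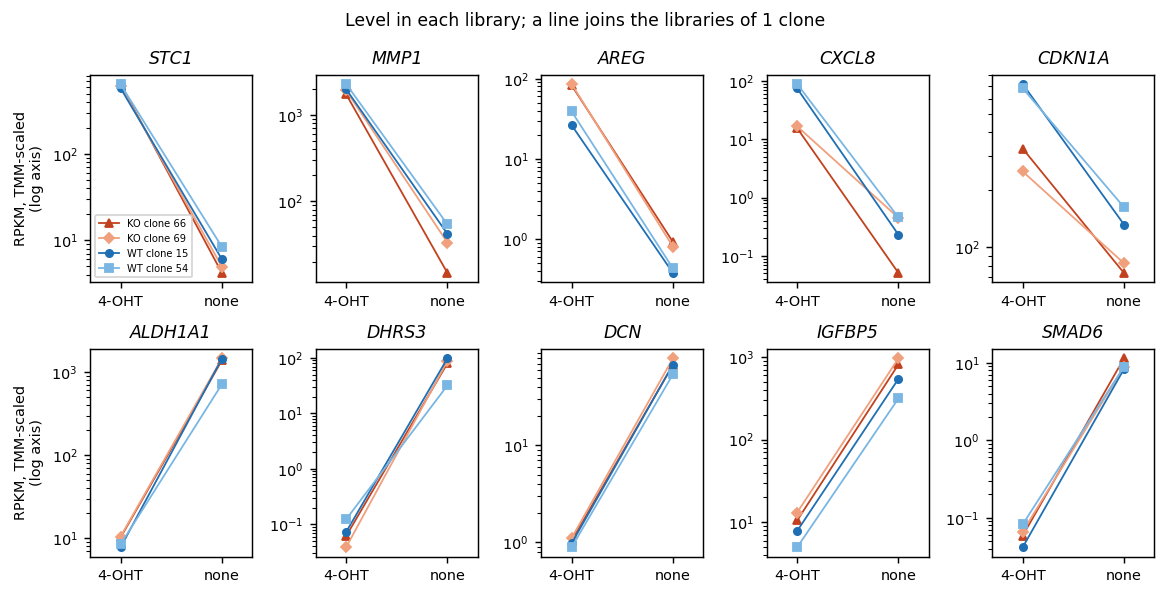
TMM-scaled RPKM on a log axis in each library for 10 genes, with 4-OHT at the left and without it at the right of each panel. A line joins the libraries of 1 clone (KO clones 66 and 69 in red shades, WT clones 15 and 54 in blue shades), and all 4 lines run the same way in every panel, as for STC1, at 580.5 to 649.1 RPKM with 4-OHT and 4.18 to 8.37 RPKM without it.

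The strongest shared decreases included enzymes of retinoid metabolism, matrix proteins and receptors. DHRS3 (chr1:12567910-12617731, minus strand), a reductase of retinaldehyde, had 0.0612 and 0.0384 RPKM in KO and 0.0724 and 0.122 RPKM in WT clones with 4-OHT, against 80.1 and 88.03 RPKM in KO and 98.5 and 31.9 RPKM in WT clones without it. The least responsive clone, WT clone 54, still fell 144-fold (log2 change -8.65 ± 0.37 SE, adjusted p = 5.32e-05), and that clone also had the lowest level without 4-OHT. ALDH1A1, a dehydrogenase that makes retinoic acid, had 10.2 and 10.5 RPKM in KO and 7.81 and 8.46 RPKM in WT clones with 4-OHT, against 1386 and 1463 RPKM in KO and 1453 and 716 RPKM in WT clones without it. For ALDH1A1 the log2 change was -7.02 ± 0.18 SE (adjusted p = 2.01e-05). Without the compound WT clone 54 stood below the other 3 clones, and with it all 4 were close together. DCN, the small proteoglycan decorin, had 1.03 and 1.1 RPKM in KO and 0.971 and 0.885 RPKM in WT clones with 4-OHT, against 68.3 and 79.8 RPKM in KO and 68.7 and 54.5 RPKM in WT clones without it (log2 change -5.94 ± 0.08 SE, adjusted p = 4.47e-06), and IGFBP5, a binding protein of insulin-like growth factors, had 10.5 and 13.1 RPKM in KO and 7.83 and 4.96 RPKM in WT clones with 4-OHT, against 816 and 968 RPKM in KO and 546 and 316 RPKM in WT clones without it. For IGFBP5 the log2 change was -6.13 ± 0.08 SE (adjusted p = 4.47e-06). Both fell by nearly the same factor in each clone: the responses of DCN were -5.91 and -6.05 in KO and -6.01 and -5.79 in WT clones, on the log2 scale.

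CHRM2, the M2 muscarinic receptor, stood at 0.47 to 0.645 RPKM with 4-OHT, against 50.1 to 72.4 RPKM without it (log2 change -6.66 ± 0.12 SE, adjusted p = 7.5e-06). HTR2B, a serotonin receptor, stood at 0.455 to 1.16 RPKM with 4-OHT, against 32.7 to 45.5 RPKM without it. SMAD6, an inhibitor of BMP signalling, stood at 0.0416 to 0.0821 RPKM with 4-OHT, against 8.31 to 11.4 RPKM without it (log2 change -5.87 ± 0.16 SE, adjusted p = 2.01e-05). SULF1, which edits heparan sulfate, stood at 0.0566 to 0.194 RPKM with 4-OHT, against 15.7 to 85.6 RPKM without it, and its lowest level without 4-OHT was again in WT clone 54. PREX2, an exchange factor for RAC, stood at 0.191 to 0.234 RPKM with 4-OHT, against 17.2 to 21.6 RPKM without it, and ANO3, of the anoctamin membrane proteins, at 0.0648 to 0.303 RPKM with 4-OHT, against 30 to 50.1 RPKM without it. OLR1, a receptor for oxidised LDL, stood at 0.155 to 0.827 RPKM with 4-OHT, against 25.9 to 31.4 RPKM without it. SYPL2, a synaptophysin-like membrane protein, stood at 1.4 to 3.38 RPKM with 4-OHT, against 104 to 169 RPKM without it, B3GALT2, a galactosyltransferase, at 0.11 to 0.219 RPKM with 4-OHT, against 8.51 to 25.1 RPKM without it, and KRT4, a keratin, at 0 to 0.0186 RPKM with 4-OHT, against 3.5 to 28.9 RPKM without it. RARRES2, the adipokine chemerin, whose gene responds to retinoids, stood at 0 to 0.0235 RPKM with 4-OHT, against 8.84 to 14.7 RPKM without it. The least responsive clone fell between 33.8-fold (OLR1) and 144-fold (DHRS3). For all 15 the lowest library without 4-OHT was above the highest library with it. The ranking by the smallest response favours such a separation, and its share among all genes tested is not given here.

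**Figure D2:**
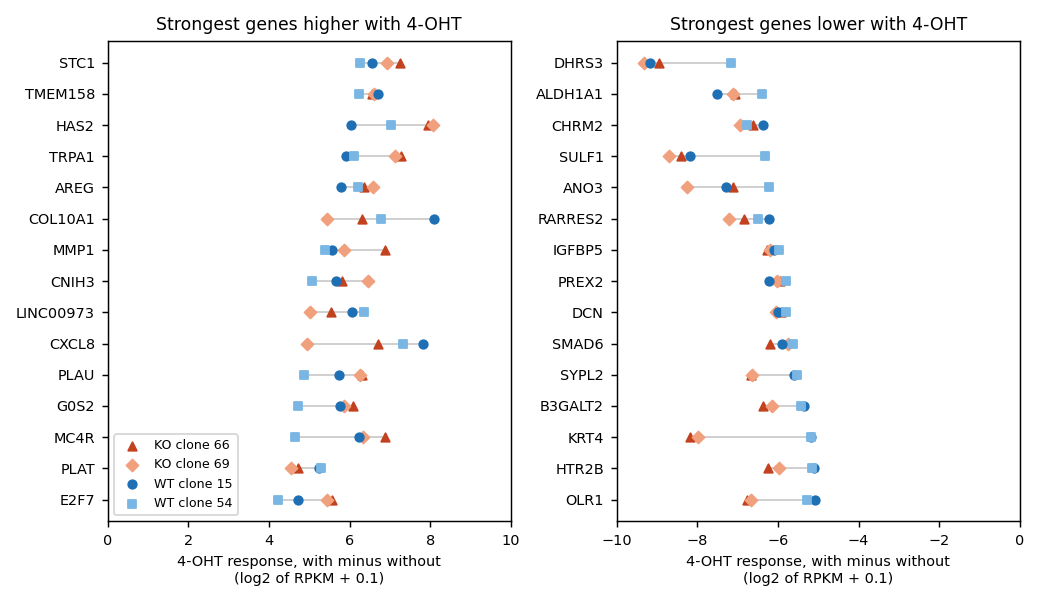
Response to 4-OHT (log2 of RPKM + 0.1, with minus without) in each clone for the 15 genes higher and the 15 genes lower in every clone with the largest smallest response. Triangles and diamonds are KO clones 66 and 69, circles and squares WT clones 15 and 54. The 4 clones lie close together for TMEM158, IGFBP5 and DCN and spread for CXCL8 and KRT4.

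Promoter sequences were taken from RefSeq (GRCh38.p14) for 20 of these 30 genes, from 250 bases before to 50 bases after the annotated start. The AP-1 motif TGANTCA, read on both strands, was in 2 of the 20, those of CXCL8 and LINC00973. Of the 20 RefSeq starts, those of ANO3, LINC00973, COL10A1 and DHRS3 lie farthest outside the gene as GENCODE 29 places it, that of ALDH1A1 lies far inside it, and the sequence of LINC00973 is not shown for that reason. The CRE motif TGACGTCA was in the promoter of AREG. These sequences are shown because they belong to the strongest shared increases in a chemokine and in an EGF receptor ligand, with the motif in capitals, on the plus strand. CXCL8 lies at chr4:73740319-73740618, with AP-1 starting at position -137, and AREG at chr4:74444886-74445185, with CRE starting at position -65.

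CXCL8: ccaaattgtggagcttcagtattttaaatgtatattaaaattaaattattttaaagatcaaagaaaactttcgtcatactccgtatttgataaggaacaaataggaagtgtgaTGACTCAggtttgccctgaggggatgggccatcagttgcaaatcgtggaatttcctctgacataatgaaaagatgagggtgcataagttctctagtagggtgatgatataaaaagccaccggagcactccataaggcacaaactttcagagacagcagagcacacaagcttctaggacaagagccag

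AREG: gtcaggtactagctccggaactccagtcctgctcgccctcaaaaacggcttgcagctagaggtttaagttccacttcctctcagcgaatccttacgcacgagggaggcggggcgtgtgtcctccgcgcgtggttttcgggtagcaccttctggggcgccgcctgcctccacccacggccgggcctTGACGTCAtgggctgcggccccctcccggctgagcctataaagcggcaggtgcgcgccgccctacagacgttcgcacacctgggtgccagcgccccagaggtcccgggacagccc

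Over the 11063 tested genes with a promoter, AP-1 was in 9.42% of the 446 promoters of genes at least 2-fold higher in every clone, in 5.81% of the 723 at least 2-fold lower, and in 4.85% of all. The ETS motif CCGGAAG was in 40 of the 446, 56 of the 723 and 2106 of the 11063. The TATA box (TATAAA) was in 8.97%, 8.99% and 5.88% of the same sets, and the E-box CACGTG in 10.5%, 7.75% and 9.85%. CRE was in 2.47%, 1.66% and 3.35%. In the larger sets of all genes called higher (3185 promoters) or lower (3057) in every clone, shares lay nearer those of all genes for AP-1 (5.46% and 5.04%). They were 20.1% and 14.8% for ETS, 5.81% and 6.18% for the TATA box, 10.7% and 8.44% for the E-box, and 3.67% and 2.78% for CRE.  TATAAA can lie anywhere in the 300 bases, and a match is a description of letters only.

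Some shared changes were nearly equal in all clones and others differed several-fold. The evenest increase of at least 2-fold was in SPRED2, an inhibitor of RAS signalling to RAF, with 15.5 and 13.8 RPKM in KO and 16.2 and 15.3 RPKM in WT clones with 4-OHT, against 3.41 and 3.11 RPKM in KO and 3.71 and 3.58 RPKM in WT clones without it. Its responses were 2.15 and 2.11 in KO and 2.10 and 2.07 in WT clones, on the log2 scale, an SD of 0.03. CYB5B, a mitochondrial cytochrome b5, ARSJ, an arylsulfatase, CCT6A, a chaperonin subunit, and EDEM3, which marks misfolded glycoproteins, were the other 4, with log2 changes of 1.40, 1.18, 1.000 and 1.03. The evenest decreases were in DENND6B, ZBTB41, the integrin chain ITGAV, the lysosomal protease CTSF and the transporter SLC2A10, with log2 changes of -1.69, -1.07, -1.03, -2.74 and -1.28. CTSF had 3.95 and 4.4 RPKM in KO and 2.46 and 2.75 RPKM in WT clones with 4-OHT, against 28.2 and 29.3 RPKM in KO and 16.8 and 18.6 RPKM in WT clones without it. KO clones were the higher pair in both conditions, and the fall was nearly equal in all 4 clones.

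Among the least even increases, KCTD4 had 0.939 and 0.656 RPKM in KO and 6.43 and 4.72 RPKM in WT clones with 4-OHT, against 0.202 and 0.11 RPKM in KO and 0.0225 and 0.0709 RPKM in WT clones without it, and TNFSF15, a cytokine of the TNF family, had 1.04 and 0.994 RPKM in KO and 3.13 and 2.02 RPKM in WT clones with 4-OHT, against 0.381 and 0.23 RPKM in KO and 0.0702 and 0.00669 RPKM in WT clones without it; both rose more in WT clones, with KO minus WT -3.46 log2 units (adjusted p = 0.00923) and -2.80 log2 units (adjusted p = 0.0101). NUF2, a kinetochore protein, had 17.2 and 20.9 RPKM in KO and 6.32 and 8.15 RPKM in WT clones with 4-OHT, against 1.92 and 1.16 RPKM in KO and 5.49 and 4.66 RPKM in WT clones without it and rose more in KO clones, by 3.08 log2 units (adjusted p = 0.00897). HIST1H3B, a replication-dependent histone with near-identical copies, had 1227 and 1312 RPKM in KO and 358 and 577 RPKM in WT clones with 4-OHT, against 162 and 152 RPKM in KO and 303 and 443 RPKM in WT clones without it. Of HIST1H3B, the untreated level of WT clone 54 lay above the treated level of WT clone 15. The shared call of NUF2 and HIST1H3B was lost without clone 66 (adjusted p = 0.135 for NUF2 and 0.151 for HIST1H3B) and without clone 69 (0.109 and 0.145). With all clones kept, NUF2 missed the threshold with no filter on low values (0.104), with limma-voom (0.0834) and without trend and robust moderation (0.0601). HIST1H3B missed it in those settings (0.114, 0.0879 and 0.0679), with a pseudocount of 1 (0.0514), with a stricter filter (0.0526) and with scaling by library size alone (0.053). AC096537.1, a transcript within CNIH3 whose reads cannot be told apart from that gene's unless strand was counted, stood at 8.27 to 16.8 RPKM with 4-OHT, against 0 to 0.451 RPKM without it. The least even decreases, PTGIS (prostacyclin synthase), EDN1 (endothelin 1), KRT4, NTN4 (netrin 4) and PSG5 (of the near-identical pregnancy-specific glycoproteins), were all deeper in KO clones. EDN1 had 0.794 and 0.498 RPKM in KO and 1.78 and 2.03 RPKM in WT clones with 4-OHT, against 20.2 and 20.6 RPKM in KO and 9.85 and 5.61 RPKM in WT clones without it, a difference of -2.89 log2 units (adjusted p = 0.0126). NTN4 stood at 4.07 to 22.4 RPKM with 4-OHT, against 117 to 216 RPKM without it, and PSG5 at 3.27 to 7.31 RPKM with 4-OHT, against 13.6 to 113 RPKM without it. The least even genes were picked by the SD of these same 4 responses. The p-values of their genotype differences are therefore not independent of the choice.

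A few genes passed between near silence and clear expression in every clone. With at least 50 reads in each library of 1 condition and at most 3 in each library of the other, 7 genes were on with 4-OHT and 12 were off. How many genes had enough reads to meet this rule was not counted. The ratios, intervals and floors below use the same reads that picked these genes, pooled over clones. They are not independent of the choice and leave out the spread between clones. In clones 66, 69, 15 and 54, in that order, HAS2 had 2306, 2933, 894 and 1358 reads with 4-OHT, against 0, 1, 3 and 1 reads without it, a ratio, scaled for library size, of 1470-fold (95% exact interval 630.0 to 4530, counting error only). COL10A1 had 127, 73, 207 and 181 reads with 4-OHT, against 1, 1, 0 and 1 reads without it, and IL37, a cytokine of the interleukin 1 family, had 58, 68, 112 and 87 reads with 4-OHT, against 1, 1, 1 and 1 reads without it. SYT7, a calcium sensor of vesicle fusion, had 209, 246, 110 and 93 reads with 4-OHT, against 1, 0, 0 and 0 reads without it. LINC00973 had 98, 72, 160 and 175 reads with 4-OHT, against 0, 0, 0 and 0 reads without it, and was at least 165-fold higher against a floor of 3 reads over the group. AC103718.1, a long noncoding RNA, and FAM19A3, a secreted chemokine-like protein, were the others. Among the 12 switched off, RARRES2 had 1, 0, 1 and 0 reads with 4-OHT, against 641, 683, 401 and 387 reads without it, or 1080-fold (95% exact interval 297 to 8890, counting error only) lower with 4-OHT. KRT4 had 0, 0, 1 and 0 reads with 4-OHT, against 1484, 1313, 214 and 170 reads without it. ADRA1B, an alpha-1 adrenoceptor, had 0, 0, 0 and 0 reads with 4-OHT, against 100, 83, 78 and 71 reads without it, at least 113-fold lower. NUPR1, a stress-induced nuclear protein, had 0, 0, 2 and 0 reads with 4-OHT, against 131, 158, 182 and 207 reads without it. RAMP1, which partners the calcitonin receptor-like receptor, had 1, 1, 1 and 1 reads with 4-OHT, against 118, 145, 141 and 72 reads without it. The others were PTGIS, SLITRK1, ITIH3, IL21-AS1, KIAA2012-AS1, AC099687.1 and AF165147.1.

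Gene groups were described by the number of tested members called in every clone, read against 25.8% higher and 26.9% lower among all genes tested, whose median log2 change was -0.014. Lists were drawn from textbook knowledge with earlier results of these data known, and no test was run on a list as a whole. Among feedback inhibitors of the MAPK pathway 15 of 25 tested members were higher and 4 lower in every clone (median log2 change 0.66). PHLDA1, a marker of ERK output, had 88.5 and 89.1 RPKM in KO and 86.1 and 89.2 RPKM in WT clones with 4-OHT, against 8.66 and 8.62 RPKM in KO and 10.2 and 10.4 RPKM in WT clones without it. For PHLDA1 the log2 change was 3.21 ± 0.08 SE (adjusted p = 2.01e-05). The spread between clones was small against the change. The Sprouty genes SPRY2 and SPRY4 stood at 51.4 to 60.3 RPKM with 4-OHT, against 5.72 to 6.75 RPKM without it, and at 43.7 to 67 RPKM with 4-OHT, against 2.6 to 5.16 RPKM without it. SPRED1, a partner of neurofibromin, stood at 73.2 to 84.3 RPKM with 4-OHT, against 16.3 to 17.1 RPKM without it. DUSP4, a nuclear ERK phosphatase, stood at 62.5 to 69.9 RPKM with 4-OHT, against 2.37 to 5.1 RPKM without it (log2 change 4.12 ± 0.16 SE, adjusted p = 4.69e-05), and DUSP6, its cytoplasmic relative, at 73.4 to 116 RPKM with 4-OHT, against 12.02 to 17.5 RPKM without it (log2 change 2.56 ± 0.19 SE, adjusted p = 0.000265). Members that fell were DUSP1 (log2 change -1.45), SPRY1 (-1.71), DUSP8 (-1.99) and DUSP16 (-0.77). HRAS, the gene for the RAS protein of the line's name, stood at 279 to 360.1 RPKM with 4-OHT, against 199.6 to 258 RPKM without it (log2 change 0.51 ± 0.13 SE, adjusted p = 0.0209), and the call was lost without KO clone 66 (adjusted p = 0.0799) or 69 (0.0761).

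AP-1 subunits did not move together. Among AP-1 and immediate early factors 8 of 26 tested members were higher and 11 lower in every clone. FOSL1, the FOS relative FRA1, had 42.6 and 32.3 RPKM in KO and 40.6 and 47.6 RPKM in WT clones with 4-OHT, against 4.97 and 4.5 RPKM in KO and 6.63 and 11.98 RPKM in WT clones without it. For FOSL1 the log2 change was 2.62 ± 0.18 SE (adjusted p = 0.000194). All 4 libraries with 4-OHT were higher. FOS itself had 47.02 and 40.95 RPKM in KO and 12.3 and 10.6 RPKM in WT clones with 4-OHT, against 192 and 196 RPKM in KO and 219 and 154 RPKM in WT clones without it (log2 change -3.07 ± 0.39 SE, adjusted p = 0.00145), and its decrease was smaller in KO clones, by 1.85 log2 units (adjusted p = 0.00232). FOSB stood at 0.892 to 1.97 RPKM with 4-OHT, against 9.99 to 12.7 RPKM without it, and FOSL2, which encodes FRA2, at 4.66 to 6.29 RPKM with 4-OHT, against 28.4 to 32.2 RPKM without it. JUN, JUNB and JUND fell too, with log2 changes of -1.05, -0.96 and -1.50. KLF4, a zinc-finger factor, stood at 0.0678 to 0.535 RPKM with 4-OHT, against 6.39 to 10.3 RPKM without it (log2 change -4.38 ± 0.26 SE, adjusted p = 0.000131). Of the ETS factors, 7 of 17 tested members were higher and 7 lower in every clone. The rise included the PEA3 subfamily: ETV1 stood at 5.45 to 7.97 RPKM with 4-OHT, against 0.0451 to 0.444 RPKM without it, ETV4 at 6.44 to 10.2 RPKM with 4-OHT, against 0.564 to 1.29 RPKM without it and ETV5 at 20.04 to 22.3 RPKM with 4-OHT, against 3.77 to 5.82 RPKM without it. ELK3, a ternary complex factor, had a log2 change of 1.40, and ELF1 fell, with a log2 change of -1.94 (4.51 to 4.9 RPKM with 4-OHT, against 15.8 to 20.4 RPKM without it).

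Among EGF receptor ligands and receptors 4 of 9 tested members were higher and 3 lower in every clone. Beside AREG, EREG (epiregulin) had 95.5 and 95.2 RPKM in KO and 156 and 117 RPKM in WT clones with 4-OHT, against 25.1 and 22.6 RPKM in KO and 44.5 and 38.1 RPKM in WT clones without it (log2 change 1.85 ± 0.09 SE, adjusted p = 7.58e-05), and ERRFI1, a feedback inhibitor of the receptor, had 108 and 134 RPKM in KO and 74.5 and 67.2 RPKM in WT clones with 4-OHT, against 6.28 and 7.01 RPKM in KO and 6.14 and 6.71 RPKM in WT clones without it. For ERRFI1 the log2 change was 3.80 ± 0.17 SE (adjusted p = 5.68e-05). HBEGF had a log2 change of 1.15 and an adjusted p of 0.013, or 0.0514 without WT clone 15. EGFR, the receptor, stood at 20.4 to 26.4 RPKM with 4-OHT, against 14.4 to 23.5 RPKM without it and was not called (adjusted p = 0.0947). ERBB2 and NRG1 fell, with log2 changes of -1.59 and -1.06; for NRG1 the adjusted p was 0.0206, and 0.0699 without KO clone 66 or 0.0599 without KO clone 69. Among growth and angiogenic factors 11 of 22 tested members were higher and 8 lower in every clone. HGF stood at 2.71 to 6.44 RPKM with 4-OHT, against 0.0561 to 1.21 RPKM without it, VEGFA at 5.57 to 7.49 RPKM with 4-OHT, against 1.64 to 2.04 RPKM without it, and CSF2, the granulocyte-macrophage factor, at 1.2 to 2.04 RPKM with 4-OHT while it is listed at 0 in all libraries without it. CSF1, the macrophage factor, moved the other way, at 1.45 to 1.99 RPKM with 4-OHT, against 10.3 to 18.3 RPKM without it (log2 change -2.85 ± 0.12 SE, adjusted p = 4.89e-05), as did PDGFD (0.197 to 0.396 RPKM with 4-OHT, against 2.6 to 3.77 RPKM without it). Of receptor tyrosine kinases, 5 of 18 tested members were higher and 8 lower in every clone. EPHA2 rose (log2 change 1.33), while IGF1R (-1.78), DDR1 (-1.44) and FGFR3 (-2.32) fell.

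Within the interleukin 1 family and chemokines 7 of 12 tested members were higher and 3 lower in every clone; the other 13 members were at or below 10 reads in each library, IL6 among them with 2 to 9 reads with 4-OHT, against 0 to 3 without it. IL1B had 33.9 and 42.2 RPKM in KO and 99.3 and 86.3 RPKM in WT clones with 4-OHT, against 1.95 and 3.41 RPKM in KO and 2.24 and 3.21 RPKM in WT clones without it. For IL1B the log2 change was 4.44 ± 0.29 SE (adjusted p = 0.000176). The WT clones had the higher levels with 4-OHT. IL1A stood at 0.148 to 0.637 RPKM with 4-OHT, against 0 to 0.0207 RPKM without it, CXCL1, which draws neutrophils, at 1.42 to 5.05 RPKM with 4-OHT, against 0.0383 to 0.161 RPKM without it, and IL11 at 12.7 to 17.4 RPKM with 4-OHT, against 1.74 to 3.8 RPKM without it. Other chemokines fell, CXCL16 among them (log2 change -2.18). CCL2, a monocyte attractant, had 2.06 and 3.93 RPKM in KO and 6.72 and 3.82 RPKM in WT clones with 4-OHT, against 15.7 and 22.1 RPKM in KO and 63.4 and 26.6 RPKM in WT clones without it (log2 change -2.83 ± 0.13 SE, adjusted p = 6.57e-05), and CXCL12, which binds CXCR4, stood at 0.124 to 0.407 RPKM with 4-OHT, against 3.78 to 20.7 RPKM without it (log2 change -4.54 ± 0.30 SE, adjusted p = 0.000183). Among matrix proteases and their inhibitors 12 of 30 tested members were higher and 10 lower in every clone. Beside MMP1, PLAU and PLAT, the membrane-bound MMP14 stood at 535 to 659.9 RPKM with 4-OHT, against 126 to 148 RPKM without it (log2 change 2.12 ± 0.07 SE, adjusted p = 3.52e-05). TIMP1, an inhibitor, fell, with a log2 change of -0.72.

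TGF-beta and BMP signalling genes were mostly lower: 6 of 31 tested members were higher and 20 lower in every clone (median log2 change -1.16). The ID genes, direct BMP targets that block basic helix-loop-helix factors, all fell. ID1 had 183 and 159 RPKM in KO and 183 and 219.5 RPKM in WT clones with 4-OHT, against 492 and 450.4 RPKM in KO and 463 and 605 RPKM in WT clones without it (log2 change -1.43 ± 0.07 SE, adjusted p = 6.21e-05), and ID2 stood at 5.52 to 8.99 RPKM with 4-OHT, against 75.9 to 91.2 RPKM without it (log2 change -3.47 ± 0.13 SE, adjusted p = 4.46e-05). ID3 and ID4 had log2 changes of -1.88 and -3.19. The inhibitory SMAD7 (-1.33), the ligand BMP4 (-1.63) and the BMP antagonist GREM1 (-4.27) fell as well. BMP2, another ligand, rose, with 3.86 and 2.85 RPKM in KO and 7.81 and 16.3 RPKM in WT clones with 4-OHT, against 0.189 and 0.104 RPKM in KO and 0.0711 and 0.162 RPKM in WT clones without it (log2 change 4.78 ± 0.42 SE, adjusted p = 0.000435), and more so in WT clones, with KO minus WT -1.93 log2 units (adjusted p = 0.0197). LTBP1, which stores latent TGF-beta in the matrix, stood at 17.9 to 30.6 RPKM with 4-OHT, against 1.42 to 2.49 RPKM without it. Of WNT genes, 4 of 22 tested members were higher and 10 lower in every clone. The antagonist DKK1 stood at 42.1 to 63.2 RPKM with 4-OHT, against 226 to 292 RPKM without it, the receptors FZD4 and FZD2 had log2 changes of -3.04 and -1.14, and the receptor FZD8 rose (6.13 to 14.8 RPKM with 4-OHT, against 0.188 to 0.539 RPKM without it). WNT5A had a log2 change of -0.98. Of Notch and Hedgehog genes, 4 of 21 tested members were higher and 10 lower in every clone; without clone 66 these counts were 2 and 6, and without clone 54 the lower count was 5. The Notch ligand DLL4 had 47.6 and 35.2 RPKM in KO and 42.3 and 52.4 RPKM in WT clones with 4-OHT, against 2.84 and 1.71 RPKM in KO and 2.61 and 4.24 RPKM in WT clones without it (log2 change 3.97 ± 0.12 SE, adjusted p = 2.76e-05), whereas the ligand JAG1 stood at 0.181 to 0.348 RPKM with 4-OHT, against 2.84 to 3.71 RPKM without it. HES1, a Notch target, rose (15.9 to 18.9 RPKM with 4-OHT, against 3.66 to 6.91 RPKM without it), and GAS1, a Hedgehog co-receptor, fell (3.51 to 4.47 RPKM with 4-OHT, against 32.3 to 75 RPKM without it).

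Retinoid genes had the lowest median of the lists, a log2 change of -2.02, and 1 of 15 tested members were higher and 10 lower in every clone. After DHRS3, ALDH1A1 and RARRES2, the cellular retinoic acid carrier CRABP2 had 13.8 and 21.9 RPKM in KO and 11.4 and 9.86 RPKM in WT clones with 4-OHT, against 501 and 479 RPKM in KO and 702 and 633 RPKM in WT clones without it. For CRABP2 the log2 change was -5.39 ± 0.27 SE (adjusted p = 7.58e-05). The fall was smaller in KO clones, by 1.16 log2 units (adjusted p = 0.0421). RDH10, which oxidises retinol, stood at 3.04 to 4.99 RPKM with 4-OHT, against 27.4 to 127 RPKM without it (log2 change -4.03 ± 0.48 SE, adjusted p = 0.00118), with the higher untreated levels in KO clones. RARRES1, a retinoid-responsive gene, stood at 0.0786 to 0.394 RPKM with 4-OHT, against 3.06 to 4.88 RPKM without it. The member that rose, CYP26B1, which degrades retinoic acid, stayed at 0.0569 to 0.199 RPKM with 4-OHT, against 0 to 0.0267 RPKM without it, near the detection limit, and no member was called higher without clone 15 or without clone 66. The medians of the 15 tested members were -2.22 and -2.09 in KO clones 66 and 69 and -1.98 and -1.97 in WT clones 15 and 54.

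Transcription factors of mesenchymal identity changed in both directions: 9 of 32 tested members were higher and 16 lower in every clone. FOXD1 stood at 22.8 to 31.2 RPKM with 4-OHT, against 2.61 to 4.09 RPKM without it (log2 change 3.02 ± 0.12 SE, adjusted p = 4.69e-05), and PITX1, a hindlimb factor, at 66.03 to 109 RPKM with 4-OHT, against 16.96 to 33.3 RPKM without it. PRRX1, a limb mesenchyme factor, rose with 143 and 131 RPKM in KO and 108 and 119 RPKM in WT clones with 4-OHT, against 23.1 and 21.9 RPKM in KO and 40.9 and 34.3 RPKM in WT clones without it. For PRRX1 the log2 change was 2.10 ± 0.22 SE (adjusted p = 0.00079). OSR2 and TWIST1, factors of mesenchymal development, stood at 3.57 to 7.24 RPKM with 4-OHT, against 28.2 to 38.99 RPKM without it, and at 15.04 to 29.6 RPKM with 4-OHT, against 52.9 to 101 RPKM without it. NFIX fell with a log2 change of -1.88. Among HOX genes, which keep positional identity, 0 of 16 tested members were higher and 6 lower in every clone, and 17 more were at 12 reads or fewer in every library. HOXA13, a distal gene, had 7.65 and 6.69 RPKM in KO and 6.87 and 7.15 RPKM in WT clones with 4-OHT, against 21.4 and 21.8 RPKM in KO and 21.99 and 21.02 RPKM in WT clones without it. For HOXA13 the log2 change was -1.59 ± 0.08 SE (adjusted p = 7.25e-05). HOXA10, HOXC11 and HOXD10 had log2 changes of -1.004, -0.81 and -1.08. HOTAIR, the noncoding RNA of the HOXC cluster, stood at 0.837 to 1.69 RPKM with 4-OHT, against 5.37 to 7.47 RPKM without it (log2 change -2.50 ± 0.18 SE, adjusted p = 0.000237).

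**Figure D3:**
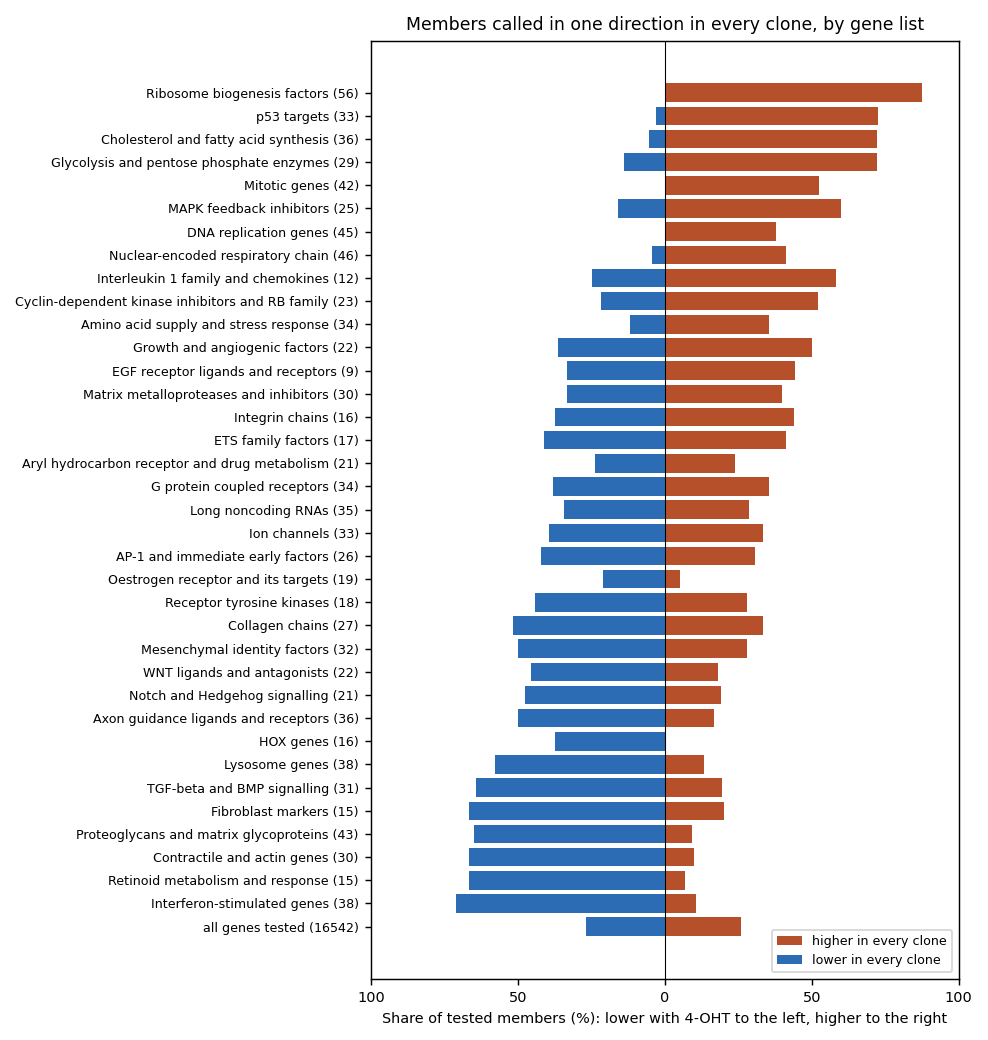
Share of the tested members (number in parentheses) of each gene list with at least 9 tested members that was higher (right, brown) or lower (left, blue) with 4-OHT in every clone, with all 16542 genes at the foot (25.8% higher, 26.9% lower). Ribosome biogenesis factors head the list with 87.5% higher, and interferon-stimulated genes stand last with 71.1% lower.

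Matrix genes fell more often than they rose. Among proteoglycans and glycoproteins 4 of 43 tested members were higher and 28 lower in every clone (median log2 change -1.16). LUM, the proteoglycan lumican, had 20.2 and 23.5 RPKM in KO and 18.4 and 12.2 RPKM in WT clones with 4-OHT, against 773 and 855 RPKM in KO and 475 and 286 RPKM in WT clones without it. For LUM the log2 change was -4.91 ± 0.14 SE (adjusted p = 2.25e-05). MATN2 stood at 0.112 to 0.308 RPKM with 4-OHT, against 3.37 to 8.54 RPKM without it, PCOLCE, an enhancer of procollagen processing, at 41.98 to 62.3 RPKM with 4-OHT, against 227 to 320.4 RPKM without it, and MFAP5, of the microfibrils, at 0 to 0.0681 RPKM with 4-OHT, against 1.5 to 8.33 RPKM without it. Tenascin C (TNC), a glycoprotein of wounds and tumour stroma, rose (64.1 to 86.9 RPKM with 4-OHT, against 12.1 to 26.7 RPKM without it; log2 change 2.06 ± 0.17 SE, adjusted p = 0.000315), as did HAS2. Of collagen chains, 9 of 27 tested members were higher and 14 lower in every clone, the higher count being 5, 4 and 5 without clones 15, 66 and 69. The fibrillar chains COL1A2, COL1A1 and COL3A1 stood at 242 to 334 RPKM with 4-OHT, against 1222 to 1763 RPKM without it, at 51.4 to 74.8 RPKM with 4-OHT, against 210.2 to 346 RPKM without it, and at 88.9 to 129 RPKM with 4-OHT, against 355 to 534 RPKM without it. Their log2 changes were -2.41, -2.14 and -1.97. COL15A1 (-4.23), COL16A1 (-2.78) and COL11A1 (-1.45) fell too. COL6A1, of the microfibrillar collagen, rose (1.43). Of integrin chains, 7 of 16 tested members were higher and 6 lower in every clone. ITGA2, of the collagen receptor, had 130.1 and 124 RPKM in KO and 181 and 163 RPKM in WT clones with 4-OHT, against 5.11 and 5.75 RPKM in KO and 7.08 and 16.6 RPKM in WT clones without it. For ITGA2 the log2 change was 4.25 ± 0.24 SE (adjusted p = 0.000113). ITGA6, of laminin receptors, and ITGA5, of the fibronectin receptor, had log2 changes of 2.54 and 1.54, while ITGB4 fell (0.0608 to 0.107 RPKM with 4-OHT, against 0.852 to 6.91 RPKM without it).

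Contractile and actin genes were lower: 3 of 30 tested members were higher and 20 lower in every clone. CALD1, caldesmon, had 236 and 242 RPKM in KO and 312 and 295 RPKM in WT clones with 4-OHT, against 1109 and 1176 RPKM in KO and 1079 and 1020 RPKM in WT clones without it. For CALD1 the log2 change was -2.02 ± 0.11 SE (adjusted p = 0.000112). MYOCD, the co-activator of smooth muscle genes, stood at 0.0053 to 0.0282 RPKM with 4-OHT, against 0.307 to 0.824 RPKM without it, LMOD1, an actin nucleator of smooth muscle, at 0.499 to 1.12 RPKM with 4-OHT, against 14.9 to 21.5 RPKM without it, and CNN1, calponin, at 0.316 to 0.539 RPKM with 4-OHT, against 3.05 to 8.57 RPKM without it. The kinase MYLK and the nonmuscle myosin MYH10 had log2 changes of -1.41 and -1.75. ACTA2, smooth muscle actin, was not called. Of axon guidance ligands and receptors, 6 of 36 tested members were higher and 18 lower in every clone. SEMA3B, a secreted semaphorin, had 1.29 and 1.01 RPKM in KO and 0.762 and 0.905 RPKM in WT clones with 4-OHT, against 36.8 and 28.7 RPKM in KO and 30.9 and 27.6 RPKM in WT clones without it. For SEMA3B the log2 change was -4.84 ± 0.11 SE (adjusted p = 1.44e-05). SLIT2 and EPHA4 fell (-3.08 and -3.52), while SEMA3A rose (111 to 131 RPKM with 4-OHT, against 27.7 to 39.5 RPKM without it). G protein coupled receptors changed in both directions, and 12 of 34 tested members were higher and 13 lower in every clone. Those higher included LPAR3, a receptor of lysophosphatidic acid (9.62 to 13.4 RPKM with 4-OHT, against 0.784 to 1.13 RPKM without it), and F2RL1, a protease-activated receptor (10.4 to 20.01 RPKM with 4-OHT, against 0.511 to 0.662 RPKM without it). OXTR, the oxytocin receptor, fell, with 48.8 and 56.5 RPKM in KO and 55.3 and 59.5 RPKM in WT clones with 4-OHT, against 533 and 569 RPKM in KO and 449 and 407 RPKM in WT clones without it. For OXTR the log2 change was -3.14 ± 0.12 SE (adjusted p = 4.69e-05). Of ion channels, 11 of 33 tested members were higher and 13 lower in every clone, and without clone 66 the higher count was 7. TRPV2 stood at 60.5 to 83.1 RPKM with 4-OHT, against 9.38 to 18.4 RPKM without it, and the potassium channels KCNQ5 and KCNMA1 at 3.8 to 5.81 RPKM with 4-OHT, against 0.212 to 0.369 RPKM without it, and at 7.72 to 9.66 RPKM with 4-OHT, against 1.77 to 3.34 RPKM without it. TRPC6, a calcium-permeable channel, fell (0 to 0.5 RPKM with 4-OHT, against 4.42 to 14.4 RPKM without it).

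Targets of p53 were mostly higher: 24 of 33 tested members were higher and 1 lower in every clone (median log2 change 0.97). CDKN1A, which encodes the inhibitor p21, had 329 and 249.9 RPKM in KO and 716 and 680.4 RPKM in WT clones with 4-OHT, against 73.5 and 82.6 RPKM in KO and 132 and 162 RPKM in WT clones without it. For CDKN1A the log2 change was 2.07 ± 0.14 SE (adjusted p = 0.000188). All 4 libraries with 4-OHT were above those without it, and WT clones had the higher levels in both conditions. The death and decoy receptors TNFRSF10D, TNFRSF10A and TNFRSF10B had log2 changes of 2.89, 2.69 and 1.18. AEN, a nuclease of apoptosis, TP53I3, a quinone reductase, and MDM2, the ligase that degrades p53, rose by log2 changes of 2.04, 1.11 and 0.97. PLK2, a kinase, was the member that fell (21.5 to 28.3 RPKM with 4-OHT, against 63.4 to 90.2 RPKM without it). Among cyclin-dependent kinase inhibitors and RB family genes 12 of 23 tested members were higher and 5 lower in every clone. The D-type cyclin CCND1 had 617 and 564 RPKM in KO and 840.0 and 866 RPKM in WT clones with 4-OHT, against 100.5 and 101 RPKM in KO and 110.0 and 144 RPKM in WT clones without it. For CCND1 the log2 change was 2.65 ± 0.09 SE (adjusted p = 4.03e-05). The inhibitors split. CDKN2B (p15) stood at 11.5 to 15.5 RPKM with 4-OHT, against 2.21 to 5.2 RPKM without it, whereas CDKN1B (p27) had 20.2 and 21.9 RPKM in KO and 19.5 and 14.3 RPKM in WT clones with 4-OHT, against 71.7 and 68.7 RPKM in KO and 72.2 and 48.6 RPKM in WT clones without it. For CDKN1B the log2 change was -1.78 ± 0.07 SE (adjusted p = 4.69e-05). CDKN1C (p57) and CDKN2C (p18) fell as well, with log2 changes of -3.10 and -2.34. CDKN2A, which encodes p16, is listed at 0 in all 8 libraries. So are the widely used genes ALDOA and LDHB, so its absence cannot be read from this.

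The rise of cell-cycle genes differed in size between genotypes. Of mitotic genes, 22 of 42 tested members were higher in every clone and 0 lower, yet the interaction term was called for all 42, against 8.37% of all genes tested. Their median responses were 2.40 and 2.56 log2 units in KO clones 66 and 69, against 0.35 and 0.18 in WT clones 15 and 54. The shared count depended on the KO clones and on the test: it was 3 without clone 66, 4 without clone 69 and 7 with limma-voom on the recovered reads. AURKA, a mitotic kinase, had 46.3 and 43.3 RPKM in KO and 26.9 and 29.9 RPKM in WT clones with 4-OHT, against 7.39 and 6.72 RPKM in KO and 12.7 and 18.3 RPKM in WT clones without it. For AURKA the log2 change was 1.77 ± 0.37 SE (adjusted p = 0.00924). PTTG1 (securin) and CENPN, a kinetochore protein, had log2 changes of 1.95 and 0.97. CKS2 had 1.70, with an adjusted p of 0.0145, or 0.053 without clone 66. DNA replication genes were similar, with 17 of 45 tested members higher, 0 lower and 40 with the interaction called, and 5 higher without clone 66 or without clone 69 and 9 with limma-voom. TIPIN, a fork protection factor, was among the few with an even rise (9.66 to 12.01 RPKM with 4-OHT, against 3.79 to 5.89 RPKM without it; log2 change 1.25 ± 0.12 SE, adjusted p = 0.000618), and RPA2, which binds single strands, had a small one (log2 change 0.38). POLA2 and RFC5, of the polymerase alpha and clamp loader complexes, had 1.45 and 1.19. MKI67, LMNB1 and HMGB2, common marks of proliferation or its loss in senescence, were not shared changes. MKI67 had 13.9 and 13.7 RPKM in KO and 5.82 and 6.15 RPKM in WT clones with 4-OHT, against 2.33 and 2.06 RPKM in KO and 5.02 and 6.94 RPKM in WT clones without it, and its responses were 2.52 and 2.68 in KO and 0.21 and -0.17 in WT clones. The responses of LMNB1 (lamin B1) were 1.62 and 1.57 in KO and -1.07 and -0.92 in WT clones, and those of HMGB2 were 0.76 and 1.20 in KO and -1.41 and -1.53 in WT clones. The differences between genotypes were 2.58 log2 units (adjusted p = 0.00189), 2.59 log2 units (adjusted p = 0.00115) and 2.45 log2 units (adjusted p = 0.00178) for KO minus WT.

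**Figure D4:**
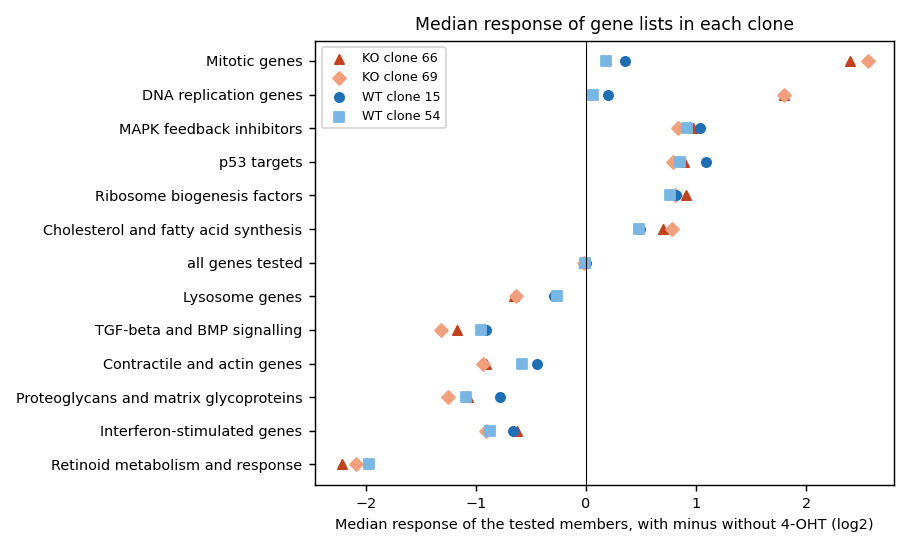
Median log2 response to 4-OHT (with minus without) of the tested members of 12 gene lists and of all genes tested, in KO clones 66 and 69 (triangles and diamonds) and WT clones 15 and 54 (circles and squares). KO and WT clones lie far apart for mitotic and DNA replication genes, of which mitotic genes stand at 2.40 and 2.56 in KO and at 0.35 and 0.18 in WT clones.

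Biosynthetic genes were mostly higher. Of ribosome biogenesis factors, 49 of 56 tested members were higher and 0 lower in every clone (median log2 change 0.81). The interaction was called for 5 of the 56, against 8.37% of all genes tested. Their medians were 0.91 and 0.81 in KO clones and 0.82 and 0.76 in WT clones. LYAR, a nucleolar protein, had 49.5 and 45.7 RPKM in KO and 47.7 and 43.7 RPKM in WT clones with 4-OHT, against 8.38 and 8.01 RPKM in KO and 8.06 and 9.92 RPKM in WT clones without it. For LYAR the log2 change was 2.43 ± 0.10 SE (adjusted p = 4.69e-05). NOP16 and GNL2, of the large subunit's assembly, stood at 20.6 to 24.4 RPKM with 4-OHT, against 7.13 to 7.54 RPKM without it, and at 50.46 to 54.9 RPKM with 4-OHT, against 22.6 to 26.8 RPKM without it. BYSL, needed for the small subunit, stood at 18.9 to 21.3 RPKM with 4-OHT, against 7 to 7.54 RPKM without it (log2 change 1.45 ± 0.08 SE, adjusted p = 0.00011). These 4 genes had no overlap between conditions, but they were picked as the list members with the smallest p, which favours this. Cholesterol and fatty acid synthesis genes were also mostly higher: 26 of 36 tested members were higher and 2 lower in every clone (median 0.64). NSDHL, IDI1, FDFT1 and FDPS, enzymes of the sterol pathway, had log2 changes of 1.47, 0.94, 1.19 and 1.01. The 2 that fell were SREBF1 and SREBF2, the transcription factors of that pathway (-0.63 and -0.41).

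Of glycolysis and pentose phosphate enzymes, 21 of 29 tested members were higher and 4 lower in every clone, the lower count being 2 without clone 15 or without clone 66. HK2, which traps glucose, had 18.5 and 15.7 RPKM in KO and 22.5 and 19.4 RPKM in WT clones with 4-OHT, against 6.11 and 6.65 RPKM in KO and 6.01 and 7.3 RPKM in WT clones without it. For HK2 the log2 change was 1.52 ± 0.12 SE (adjusted p = 0.000321). PDK1, a brake on pyruvate oxidation, and the enzymes PGAM1 and ENO2 had log2 changes of 1.90, 0.82 and 1.37. ALDOA, LDHB and the amino acid enzyme ASNS, which most cells use, are listed at 0 in every library. Of nuclear-encoded respiratory chain genes, 19 of 46 tested members were higher and 2 lower in every clone, with small changes: CYC1 0.92, UQCRH 0.70, SDHB 0.64 and ATP5F1B 0.57 on the log2 scale. The lower count was 1 without clone 15, 66 or 69 and 5 without clone 54. Among genes of amino acid supply and stress, 12 of 34 tested members were higher and 4 lower in every clone, the lower count being 8 without clone 69. CHAC1, which degrades glutathione, had 97.2 and 104 RPKM in KO and 164 and 151 RPKM in WT clones with 4-OHT, against 8.11 and 6.84 RPKM in KO and 14.7 and 13.2 RPKM in WT clones without it. For CHAC1 the log2 change was 3.61 ± 0.09 SE (adjusted p = 2.01e-05). SLC7A11, the cystine carrier, rose (25.2 to 45.9 RPKM with 4-OHT, against 7.16 to 11.4 RPKM without it), and SLC38A2, a glutamine carrier, fell (133 to 178 RPKM with 4-OHT, against 292 to 348 RPKM without it). Lysosome genes were lower: 5 of 38 tested members were higher and 22 lower in every clone. GAA, the acid glucosidase, had 10.9 and 10.5 RPKM in KO and 8.38 and 7.83 RPKM in WT clones with 4-OHT, against 47.7 and 39.9 RPKM in KO and 31.8 and 29.2 RPKM in WT clones without it. For GAA the log2 change was -1.96 ± 0.08 SE (adjusted p = 4.54e-05). NAGLU and CTSA fell by log2 changes of -1.24 and -1.30, and GLA, the acid galactosidase, rose (1.24).

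Of the lists with at least 9 tested members, interferon-stimulated and antigen presentation genes had the largest share of lower members: 4 of 38 tested members were higher and 27 lower in every clone, the higher count being 2 without clone 15, 54 or 66. IFIT1, an antiviral RNA-binding protein, had 2.07 and 2.99 RPKM in KO and 2.17 and 2.27 RPKM in WT clones with 4-OHT, against 13.6 and 17.9 RPKM in KO and 11.8 and 12.3 RPKM in WT clones without it. For IFIT1 the log2 change was -2.49 ± 0.09 SE (adjusted p = 4.36e-05). GBP2, a guanylate-binding protein, stood at 2.69 to 3.53 RPKM with 4-OHT, against 13.4 to 16.7 RPKM without it, IFI6 at 19.3 to 29.2 RPKM with 4-OHT, against 63.8 to 108 RPKM without it, and BST2, tetherin, at 0.359 to 1.6 RPKM with 4-OHT, against 3.83 to 10.6 RPKM without it. HLA-B had 411 and 369 RPKM in KO and 168 and 190.4 RPKM in WT clones with 4-OHT, against 1096 and 1230 RPKM in KO and 549 and 642 RPKM in WT clones without it (log2 change -1.65 ± 0.08 SE, adjusted p = 7.58e-05), and B2M, the shared light chain of class I molecules, stood at 321 to 430.5 RPKM with 4-OHT, against 604 to 1214 RPKM without it. HLA-B has relatives of similar sequence, and reads may be split between them. KO clones had the higher HLA-B and B2M levels in both conditions. OASL, of the same antiviral group, rose at a low level (0.259 to 0.55 RPKM with 4-OHT, against 0.0644 to 0.189 RPKM without it; adjusted p = 0.0175), and its call was lost without clone 15 (0.0535) or clone 54 (0.0525).

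Genes that could answer to the compound itself were examined as a group. Of the oestrogen receptor and its targets, 1 of 19 tested members were higher and 4 lower in every clone, and the higher count was 2 without clone 54 and 3 without clone 69. ESR1, the receptor, stood at 1.44 to 2.12 RPKM with 4-OHT, against 1.53 to 2.3 RPKM without it (log2 change -0.12, adjusted p = 0.599). PGR, TFF1, TFF3, AGR3, ESR2 and KRT19 had 2 reads or fewer in every library. Of the members that passed, CCND1 rose, and CXCL12, IGFBP4 (-1.19), CTSD (-1.07) and GATA3 fell. Of aryl hydrocarbon receptor and drug metabolism genes, 5 of 21 tested members were higher and 5 lower in every clone. TIPARP, a receptor target, rose (42.8 to 50.7 RPKM with 4-OHT, against 15.5 to 20.49 RPKM without it), and so did the aldose reductase AKR1B1 (145 to 288 RPKM with 4-OHT, against 60.8 to 146 RPKM without it), whose groups overlap between genotypes. ABCC3, an export pump, and ARNT, the receptor's partner, fell (-2.35 and -0.99).

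Gene classes differed in their balance. Of 664 long intergenic noncoding RNAs tested, 16.7% were higher and 37.8% lower in every clone, against 29.1% and 27.8% of 12709 protein-coding genes. Small nucleolar RNAs (103 tested) were at 27.2% and 5.83%, and small nuclear RNAs (33 tested) at 39.4% and 0%; both are short, and many have near-identical copies. In a list of known long noncoding RNAs, 10 of 35 tested members were higher and 12 lower in every clone. MIR31HG, the host of miR-31, had 9.46 and 9.91 RPKM in KO and 6.47 and 9.82 RPKM in WT clones with 4-OHT, against 3.48 and 3.46 RPKM in KO and 3.61 and 3.37 RPKM in WT clones without it (log2 change 1.31 ± 0.14 SE, adjusted p = 0.000836), FENDRR stood at 5.39 to 7.45 RPKM with 4-OHT, against 1.47 to 3 RPKM without it, and MALAT1 fell (68.3 to 115 RPKM with 4-OHT, against 146 to 192 RPKM without it). EPB41L4A-AS1, the host transcript of SNORA13, fell in all clones, with 2.36 and 2.08 RPKM in KO and 1.96 and 1.84 RPKM in WT clones with 4-OHT, against 6.84 and 7.71 RPKM in KO and 4.29 and 4.08 RPKM in WT clones without it. For EPB41L4A-AS1 the log2 change was -1.38 ± 0.16 SE (adjusted p = 0.00104). SNHG7 and CARMN fell too (-1.05 and -1.86). In 52 places at least 3 adjacent tested genes changed 2-fold or more in the same direction in every clone. One is C1S, C1R and C1RL (at least 4.47-fold lower in each clone). C1R and C1S are the proteases that open the classical complement cascade. C1S stood at 0.89 to 1.19 RPKM with 4-OHT, against 18.1 to 23.9 RPKM without it. C1R stood at 2.07 to 4.97 RPKM with 4-OHT, against 60.8 to 70.7 RPKM without it, and C1RL at 3.8 to 5.76 RPKM with 4-OHT, against 21.6 to 28.6 RPKM without it. Another is HMGA2, a chromatin protein, with RPSAP52 and HMGA2-AS1 (at least 4.53-fold higher): HMGA2 had 69.5 and 59.7 RPKM in KO and 96.2 and 124 RPKM in WT clones with 4-OHT, against 6.04 and 6.77 RPKM in KO and 7.87 and 10.1 RPKM in WT clones without it. For HMGA2 the log2 change was 3.46 ± 0.10 SE (adjusted p = 2.45e-05). IL1A, IL1B and IL37 form 1 more (at least 2.48-fold higher). Taken singly, 3.85% of genes tested were at least 2-fold higher and 6.52% at least 2-fold lower in every clone. How many runs would arise from these shares alone was not tested. Some runs hold overlapping or antisense entries of 1 locus, as that of HMGA2 and HMGA2-AS1 does. Reads of overlapping genes cannot be told apart unless strand was counted, which the sources used here do not say.

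The labelled cell type was checked against markers. All 8 libraries expressed fibroblast genes, yet the list fell with 4-OHT: 3 of 15 tested members were higher and 10 lower in every clone, and its summed level over 16 genes was 3720 to 4160 RPKM with 4-OHT, against 5330 to 6040 RPKM without it. FAP, a surface protease of activated fibroblasts, had 2.21 and 2.05 RPKM in KO and 1.73 and 1.36 RPKM in WT clones with 4-OHT, against 39.1 and 42.3 RPKM in KO and 31.6 and 24.9 RPKM in WT clones without it. For FAP the log2 change was -4.15 ± 0.08 SE (adjusted p = 1.24e-05). Vimentin (VIM), a mesenchymal filament, COL6A3 and S100A4 were the 3 that rose. POSTN is listed at 0 in every library. Of 15 epithelial markers 7 were tested, with 1 higher and 5 lower (3 lower without clone 66 and 2 without clone 69), and they summed to 271 to 301 RPKM with 4-OHT, against 498 to 804 RPKM without it, mostly from KRT18 (256 to 284 RPKM with 4-OHT, against 473 to 779.8 RPKM without it). KRT8 fell (-1.50), as did KRT7 (adjusted p = 0.0166, or 0.0601 without clone 15 and 0.0558 without clone 69), and KRT15 rose (5.46 to 7.26 RPKM with 4-OHT, against 0.0482 to 0.556 RPKM without it). KRT5, KRT14 and GRHL2 are listed at 0. Endothelial markers summed to 1.58 to 2.52 RPKM with 4-OHT, against 0.929 to 2.36 RPKM without it; of 4 tested, TIE1 and PECAM1 rose and CLDN5 and VWF fell. The higher count was 1 without clone 66 or 69, and the lower count 1 without clone 15 or 54. Immune cell markers summed to 9.41 to 16.0 RPKM with 4-OHT, against 9.40 to 17.1 RPKM without it, with CD68 listed at 0 and PTPRC lower. Melanocyte and neural markers summed to 7.30 to 17.9 RPKM with 4-OHT, against 14.5 to 19 RPKM without it, and of 4 tested 2 were higher and 1 lower (0 lower without clone 66). Adipocyte and muscle markers summed to 3.23 to 6.35 RPKM with 4-OHT, against 0.911 to 6.62 RPKM without it, and of 2 tested 1 was lower (0 without clone 15), with LEP, MYOD1 and MYOG listed at 0. A marker listed at 0 may not be absent, as the widely used ALDOA and LDHB are listed at 0 too. The part of other cell types in the results was not tested.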

How the data were processed

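RNA of 8 libraries was measured (total RNA, column extraction with DNase, stranded total RNA kit, per the labels' protocols). The authors deposited 1 table of RPKM values. STAR, featureCounts, edgeR and GRCh38 are named in the submitters' processing notes, and the sources used here do not give versions, settings or whether strand was counted. A minus sign in a column name was read as 4-OHT negative.

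Of 58870 rows, 45 copies of the Y pseudoautosomal genes were left out. GENCODE 29 gave the length of the transcript that the table names for 51380 genes, and 100% of their 159719 values above 0 were whole reads (within 0.1 read) at library totals of 22.1 to 24.9 M. For 6676 other genes the length was inferred from the value steps. PCR reads without molecular identifiers are not independent molecules, so intervals and floors cover counting error only. The deposited RPKM were divided by trimmed-mean (TMM) factors. Genes with a CPM of at least 0.425 in at least 2 libraries and 15 reads in all were kept, 16542 in number. The fold change is that of log2(RPKM + 0.1), tested with limma 3.58.1 in R 4.3.3 (trend and robust, clone as block, two-sided, Benjamini-Hochberg over all genes tested). The KO minus WT difference is an interaction term added to this fit. The clone number pairs libraries because the labels name the same clone, and the deviations of paired libraries correlated at 0.005 in KO and 0.309 in WT clones. On the recovered reads a count test (limma-voom) served as an alternative and called 8978 genes in either direction against 8814.

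Members and gene lists were chosen with earlier results of these data known. The named genes are the 15 per direction with the largest smallest response, the 5 evenest and 5 least even per direction, up to 4 per list with the smallest p, and check genes. All others named were chosen after their values were seen. Some genes are not reported here. Alternatives covered pseudocount, filter, scaling, test, moderation, block and each clone left out.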

Additional observations from a re-analysis of the deposited data

Results flagged for a closer look

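For 52 of the 257 named genes the size of the response differed between genotypes by the interaction term of limma's paired fit (adjusted p under 0.05 over all genes tested). Among all 16542 genes tested the term was called for 1385 (8.37%). The named genes include some picked for uneven responses, so the counts are not like for like. Values in parentheses are the KO minus the WT response, in log2 units. A larger rise in KO clones was found for NUF2 (3.08), HIST1H3B (2.71), AC096537.1 (2.53), PTTG1 (1.95), CKS2 (1.91), AURKA (1.75), ETV1 (1.48), POLA2 (1.36), RFC5 (1.23), TRPA1 (1.19), E2F7 (1.03), PRRX1 (1.01), F2RL1 (1.01), CENPN (0.83), COL6A1 (0.76), ERRFI1 (0.72) and HRAS (0.55). A larger rise in WT clones was found for KCTD4 (-3.46), TNFSF15 (-2.8), BMP2 (-1.93), FZD8 (-1.49), DUSP6 (-0.89) and PLAT (-0.63). Genes that fell more in KO clones were PTGIS (-3.22), KRT4 (-2.9), EDN1 (-2.89), NTN4 (-2.78), PSG5 (-2.73), RDH10 (-2.3), GREM1 (-1.6), OLR1 (-1.54), NRG1 (-1.29), MITF (-1.23), SYPL2 (-1.09), HTR2B (-0.99), DUSP1 (-0.99), WNT5A (-0.79), MALAT1 (-0.74), CTSD (-0.72), LUM (-0.6) and CALD1 (-0.47), and genes that fell more in WT clones were FOS (1.85), CRABP2 (1.16), C1R (1.06), COL3A1 (0.95), COL1A1 (0.84), JUN (0.77), COL1A2 (0.65) and KRT18 (0.51). The genes LMNB1 (2.59), MKI67 (2.58) and HMGB2 (2.45) had no shared call: LMNB1 and HMGB2 rose in both KO clones and fell in both WT clones. What lies behind these differences was not tested.

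The response of 1 clone stood apart from the other 3 (Dixon's ratio above its 95% critical value) for 16 of the 257 named genes, or 6.23%, and chance alone marks about 1 in 20 such groups. In WT clone 15 these were FOSL2 (-2.15, the other 3 at -2.66 to -2.58), KLF4 (-5.35, the other 3 at -4.06 to -4.04), ITGA6 (2.08, the other 3 at 2.67 to 2.73), EPHA4 (-4.25, the other 3 at -3.36 to -3.18), TNFRSF10A (3.27, the other 3 at 2.43 to 2.54) and MIR31HG (0.82, the other 3 at 1.42 to 1.51), on the log2 scale. In WT clone 54 they were LTBP1 (3.14, the other 3 at 3.56 to 3.65), DHRS3 (-7.17, the other 3 at -9.31 to -8.96) and LYAR (2.13, the other 3 at 2.50 to 2.55). In KO clone 66 they were ITGAV (-0.97, the other 3 at -1.06 to -1.04), GAA (-2.12, the other 3 at -1.91 to -1.89), HLA-B (-1.42, the other 3 at -1.75 to -1.71) and CTSF (-2.81, the other 3 at -2.72 to -2.71), and in KO clone 69 ID2 (-3.96, the other 3 at -3.33 to -3.30), FAP (-4.30, the other 3 at -4.12 to -4.08) and BST2 (-1.86, the other 3 at -3.29 to -3.10). All 16 kept their direction in every clone.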

How the results depend on the processing

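Without the clone block (4 group means in place of the pairing), 4758 genes were higher and 4833 lower in every clone, against 4274 and 4447 with it, and 1077 were at least 2-fold lower, against 1078. Adding a genotype by treatment term to the block gave 4785 and 4921. Scaling by library size alone gave 3837 higher and 4811 lower, so that 44.4% of shared calls were higher, against 49.0%. Leaving out 1 clone gave 3129 to 3950 higher and 3427 to 4099 lower, and limma-voom on the recovered reads 4295 and 4532. No gene called in one direction was called in the other under these settings. With a pseudocount of 1, which shrinks low genes, the genes at least 2-fold higher fell to 403 and those at least 2-fold lower to 556, against 637 and 1078 with 0.1.

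Of 257 named genes, 236 kept their direction and their side of the threshold in every setting that tested them. The log2 change turned sign only for 4 genes without a shared call. With 1 clone left out it ran from -0.014 (without 69) to 0.187 (without 54) for CD14, from -0.145 (without 66; -0.131 without 69) to 0.754 (without 15) for LMNB1, from -0.734 (without 69) to 0.18 (without 54; 0.142 without 15) for HMGB2, and from -0.248 (without 69) to 0.022 (without 54) for ESR1. The count of named genes whose response differed between genotypes (52) moved under alternatives chosen after seeing the data: it was 17 with no filter on low values, 24 without trend and robust moderation, 79 with limma-voom, and 12 to 49 without 1 clone (49, 34, 18 and 12 without clones 15, 54, 66 and 69). The cause was not tested. Leaving out a clone leaves 1 sample in an arm of that comparison, which is then assumed to vary like the others. Low genes limit the folds: 3 reads are worth 0.1204 to 0.136 RPKM at 1 kb, and a gene listed at 0 may not be absent.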

Other observations

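RN7SL1, an RNA of the signal recognition particle, had a log2 change of 0.48 (adjusted p = 0.0237) and was higher in every clone, but did not pass the test without clone 54 (adjusted p = 0.0637), 66 (0.0975) or 69 (0.0795).

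Of the 52 runs of adjacent tested genes that moved at least 2-fold in 1 direction in every clone, the following are further examples. OLR1, FAP and EPB41L4A-AS1 are described above. EFEMP1, which encodes the matrix protein fibulin 3, and CCDC85A were at least 4.45-fold lower on chromosome 2, with AC007743.1 between them. OLR1, TMEM52B, GABARAPL1 and AC115676.1 were at least 4.03-fold lower on chromosome 12. DPP4, FAP and IFIH1, a pair of related surface proteases and an RNA sensor, were at least 2.32-fold lower on chromosome 2. PCDHB10, PCDHB11 and PCDHB12, clustered protocadherins of similar sequence among which reads may be split, were at least 2.25-fold lower on chromosome 5. NREP, EPB41L4A-AS1 and STARD4-AS1, also on chromosome 5, were at least 2.13-fold lower, and this run holds the host transcript of SNORA13. These runs were picked after their values were seen.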
